A study of Gallus gallus with 24 samples.

Results

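Breast muscle of male Ross broiler chickens was compared at 7 days after hatch with liver, whole brain and duodenum of the same age, to find the genes whose RNA was higher, or lower, in muscle than in every one of the other 3 tissues. The comparison used 12 of the series' 24 arrays, which are the 3 day 7 breast muscle pools and the 3 day 7 pools of each other tissue. Each pool held RNA of 4 to 5 chicks and was hybridised to its own Affymetrix chicken array. The remaining 12 arrays held the same 4 tissues at hatch (day 0) and are used only where hatch is named. Ross is a commercial strain bred for fast growth, and the labels name no treatment. The p-values measure the spread between these pools, not between single chicks. The labels do not say whether the pools of different tissues came from the same chicks, and the main fit did not pair them.

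The chicken breast muscle, the pectoralis, is built almost wholly of fast glycolytic fibres. Such fibres contract by sliding myosin thick filaments along actin thin filaments when calcium leaves the sarcoplasmic reticulum, and they rebuild ATP quickly from creatine phosphate, glycogen and glycolysis. In a young broiler this muscle also grows very fast, under the control of myogenic transcription factors and of myostatin, a secreted brake on muscle mass.

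The unit throughout is the array signal, an intensity in arbitrary units, with ± for the SD over 3 pools per tissue. Differences are muscle minus another tissue on the scale log2(signal + 28.4), with ± for the standard error, and they understate the change of dim genes. A gene counts as higher (or lower) when all 3 comparisons with the other tissues passed an adjusted p of 0.05 in limma in the same direction, and it is then described by its smallest difference, the 1 with the nearest tissue. The 3 comparisons share the same 3 muscle pools. The median difference of a gene list is the median over its genes of the mean of each gene's 3 differences. The precision of every value is limited by there being 3 pools per tissue. In whole tissue, fewer cells of a type and less RNA per cell cannot be told apart.

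Among 25431 probe sets tested, 2732 (10.7%) were higher in muscle than in every other tissue and 1519 (5.97%) were lower. A difference of at least 4-fold from each tissue was met by 686 probe sets (2.7%) on the higher side and by 146 (0.574%) on the lower side. In the pairwise comparisons, muscle differed from liver in 11622 probe sets (45.7%), from brain in 13645 (53.7%) and from duodenum in 12512 (49.2%). Collapsed to 11318 named genes, 1420 (12.5%) were higher in muscle than everywhere else and 863 (7.63%) were lower, with 324 (2.86%) at least 4-fold higher and 90 (0.795%) at least 4-fold lower. Of all 11318 genes tested, 1396 (12.3%) were called higher and also had all 3 muscle pools above all 9 other pools. Another 805 (7.11% of all tested) were called lower and had all 3 muscle pools below all 9. The counts of gene lists below stand beside the 12.5% higher and 7.63% lower of all named genes. The lists were written with earlier results of these data known, so their counts are a description. A list count is out of all members with a probe set, including any that did not pass the filter on low signals. The 12.5% and 7.63% are of genes that passed it. By the same rule, brain had 4105 probe sets above and 2425 below the other tissues, duodenum had 2092 and 964, and liver had 1837 and 1133. Of the genes higher in muscle, liver was the nearest tissue for 531, brain for 482 and duodenum for 407. Of the genes lower in muscle, brain was the nearest for 381, liver for 265 and duodenum for 217.

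**Figure D1:**
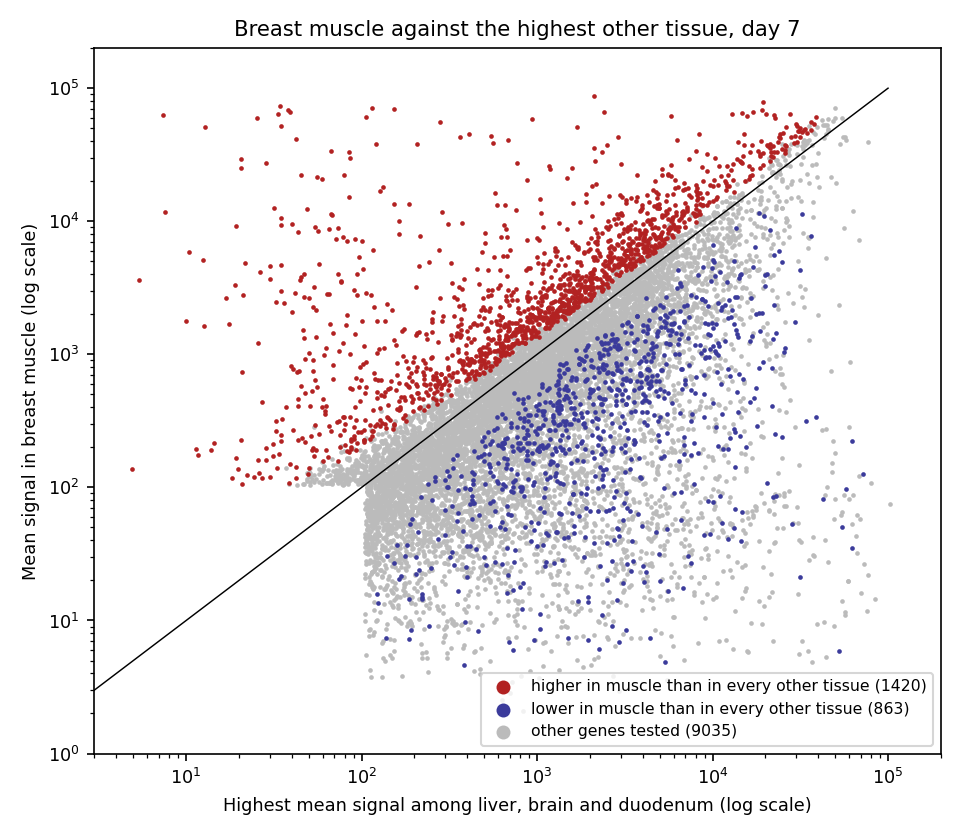
Each point is a gene, with its mean signal in the 3 breast muscle pools on the vertical axis and the highest of the 3 other tissues' means on the horizontal axis, both on log scales. The 1420 genes higher in muscle (red) include a cloud near the top left, bright in muscle and below 100 elsewhere, while the 863 lower genes (blue) lie below the line of equal signal.

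The muscle pools resembled each other closely, with correlations of log2 signal between 0.964 and 0.970, against 0.598 to 0.664 with pools of other tissues. The label was borne out by skeletal muscle markers: 7 of the 10 listed markers had a probe set, all 7 were higher in muscle, and their summed signal was 432976 to 525290 in muscle pools against at most 3038 in any other pool. Markers of other cells that a muscle sample could hold differed in level. Summed signals of 7 hepatocyte markers were 7059 to 8142 in muscle, nearly all of it APOA1 with a mean of 7251, against 434782 to 562870 in liver. For 7 neuron and glia markers they were 597 to 955 in muscle and at least 129002 in brain, and for 8 enterocyte markers 625 to 730 in muscle and at least 145884 in duodenum. The 3 haemoglobin genes summed to 53007 to 69770 in muscle, 87178 to 89714 in liver, 51254 to 54135 in brain and 13155 to 15276 in duodenum. Duodenum pool 1 stood apart in hybridisation control signal, at 43759 against 5913 to 15150 on the other 11 arrays, and brain pool 3 had the lowest 5′ to 3′ actin ratio. Leaving both out moved none of the counts of probe sets called for muscle by over 1.5 times.

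The 3 genes furthest above every other tissue were CKMT2, TNNC2 and MYLPF. CKMT2, the sarcomeric mitochondrial creatine kinase, had signals of 62994, 69222 and 57573 in the muscle pools, against at most 8.13 in liver, 9.32 in brain and 13.0 in duodenum. TNNC2, the calcium-binding troponin of fast fibres, had 72369, 79633 and 70089 in muscle, against at most 11.2 in liver, 27.9 in brain and 60.5 in duodenum. MYLPF, the regulatory light chain of fast myosin, had 50571, 54142 and 48784 in muscle, against 11.5 to 14.9 in liver, 6.11 to 10.8 in brain and 5.03 to 8.54 in duodenum. For all 3 genes every muscle pool was high and every other pool was near the bottom of the array's range. The groups did not overlap, which was a condition for entering this ranking. Their smallest log2 differences were 10.79 ± 0.24 for CKMT2, 10.31 ± 0.32 for TNNC2 and 10.28 ± 0.22 for MYLPF. The next genes in order were MYL1, the essential light chain, at 10.20 ± 0.36, the fast myosin heavy chain gene MYH1E at 10.15 ± 0.31, the inhibitory fast troponin TNNI2 at 10.07 ± 0.36 and the giant elastic protein gene TTN at 10.02 ± 0.36. NEB, which sets thin filament length, had 9.97 ± 0.41, and 15 of TTN's 16 further probe sets and 6 of NEB's 7 were called the same way. The remaining genes of the leading 15 were CMYA5, CACNG1, GPD1, PFKM, KLHL31, TNNT3 and SYPL2, between 9.32 and 8.60, and the 1 further probe set of CMYA5 was not called. Most signals of these genes outside muscle lie near or below the added 28.4, so the sizes and their order depend on that value. With 1 added, MYL1 stood at 12.05 and MYLPF at 11.86, above TNNC2 at 11.52, and ANKRD1, outside the 15 here, stood at 10.50, above PFKM, SYPL2 and TNNT3 at 9.35, 9.25 and 9.14. Adjusted p over the 15, taking the largest of each gene's 3, ran from 3.87e-14 to 2.09e-11 in limma.

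**Figure D2:**
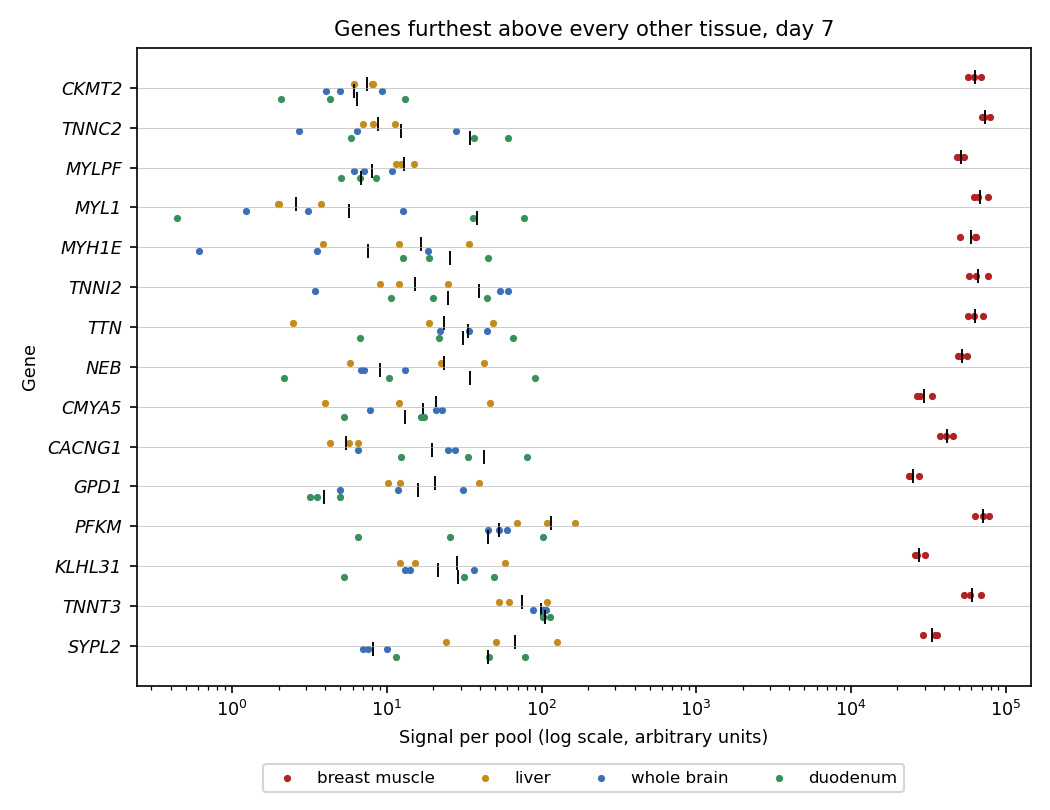
Signal in each of the 12 pools, on a log scale, for the 15 genes with the largest smallest difference above the other tissues; black ticks are group means over 3 pools. The muscle pools lie between 23664 and 79633, and every pool of liver, brain and duodenum lies at or below 165.

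Thick filament genes of fast fibres were 10 of 12 higher, the other 2 not passing the filter on low signals, and the median difference over all 12 was 7.83, beside -0.05 over all named genes. Besides MYLPF, MYL1 and MYH1E, MYBPHL, a relative of the myosin-binding proteins, averaged 38206 ± 2998 in muscle and at most 120 elsewhere, a smallest difference of 8.08 ± 0.34. The fast myosin heavy chain genes MYH1B, MYH1C and MYH1D, chosen after their values were seen, were also higher, by 6.13, 6.92 and 5.25. These paralogs are near copies of each other and their probe sets may share transcripts, so the split of signal among them is uncertain. Thin filament genes of fast fibres were 11 of 13 higher, with a median of 7.54 over the 13. TNNT3, which ties troponin to tropomyosin, had 59016, 68943 and 54023 in muscle, against 53.1 to 108 in liver, 87.8 to 107 in brain and 102 to 114 in duodenum. Its muscle pools were all far above the rest, by at least 8.82 ± 0.21. Skeletal actin, ACTA1, averaged 86787 ± 9850 in muscle and 2097 ± 599 in duodenum, its nearest tissue, a difference of 5.38 ± 0.25.

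Z-disc and titin filament genes were 23 of 29 higher, with 3 neither higher nor lower and 3 not passing the filter. ACTN2, the actinin that cross-links thin filaments at the Z-disc, was higher by 8.58 ± 0.18. ANKRD1, a titin-binding and stretch-responsive ankyrin protein, averaged 11660 ± 3773 in muscle and at most 7.53 in another tissue, and was higher by 8.30 ± 0.30.

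Slow and cardiac sarcomere genes were not absent from breast muscle: 10 of 16 were higher than in every other tissue, 2 were lower and 2 did not pass the filter. MYBPC3, the cardiac myosin-binding protein C, averaged 8986 ± 1581 in muscle and at most 54.0 elsewhere, a smallest difference of 6.76 ± 0.33. ACTC1, the cardiac actin, averaged 58875 ± 5987 in muscle and 933.6 ± 95.3 in duodenum, a difference of 5.94 ± 0.22. Isoforms of slow fibres were among the higher genes. TNNC1, a troponin gene of this list, averaged 65689 ± 4798 in muscle and at most 2406 elsewhere, higher by 4.78. TNNT2, another, averaged 227.6 ± 41.9 in muscle and was higher by 2.45. TNNI1, the slow inhibitory troponin, averaged 138.4 ± 18.1 in muscle and at most 19.8 elsewhere, and MYBPC1, the slow myosin-binding protein C, averaged 2074 ± 464 in muscle and at most 39.9 elsewhere. MYL4, an atrial and embryonic light chain, was lower in muscle, at 267.9 ± 63.5 against 1083 ± 422 in duodenum, a difference of -1.85 ± 0.24. TPM3, a tropomyosin that non-muscle cells also use, was lower at -0.43 ± 0.16 from liver, and this call was lost in 10 of 23 alternatives, among them leaving out any 1 muscle pool, liver pool 1 or 2, or brain pool 1. Neither of its 2 further probe sets was called.

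Excitation and calcium release genes were 19 of 25 higher, with none lower. CACNG1, the gamma subunit of the skeletal muscle calcium channel, had 45698, 37860 and 41441 in muscle and no more than 80.7 in any other pool. SYPL2, a triad membrane protein, was higher by 8.60 ± 0.38, and TRDN, triadin of the calcium release complex, by 7.29 ± 0.36. TMEM182, a muscle membrane protein, was higher by 7.74 ± 0.31. RYR3, a ryanodine receptor that bird muscle uses beside RYR1, averaged 16192 ± 1012 in muscle and 577.5 ± 82.0 in brain, higher by 4.75 ± 0.33. RYR2, the cardiac form, was not higher: it averaged 41.6 in muscle and 1272 in brain. The parvalbumin gene PVALB, a calcium buffer abundant in fast fibres of rodents, averaged 94.4 in muscle and 10703 in brain and was neither higher nor lower than in every tissue. OCM3, a gene of the same calcium-binding family chosen after its values were seen, averaged 8907 ± 2992 in muscle and at most 73.4 elsewhere, higher by 6.44 ± 0.31. RYR1, ATP2A1 and CKM were not analysed here.

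Neuromuscular junction genes were 6 of 11 higher and 1 lower. The receptor-clustering gene RAPSN averaged 1120 ± 169 in muscle and at most 62.3 elsewhere, higher by 3.73 ± 0.41, and the acetylcholine receptor subunit CHRND was higher by 3.30 ± 0.34. CHRNG, the receptor's fetal subunit, averaged 138.7 ± 74.3 in muscle and at most 4.88 elsewhere. LRP4, the agrin receptor, was the lower gene, at 120.3 ± 7.3 in muscle against 425.8 ± 167 in duodenum, although neither of its 2 further probe sets was called lower. Dystrophin complex and sarcolemma genes were 10 of 13 higher. CAPN3, a muscle calpain, was higher by 6.92 ± 0.25, POPDC3, a membrane protein that binds cyclic AMP, by 5.10 ± 0.28, and SGCD, delta-sarcoglycan, by 4.41 ± 0.17.

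**Figure D3:**
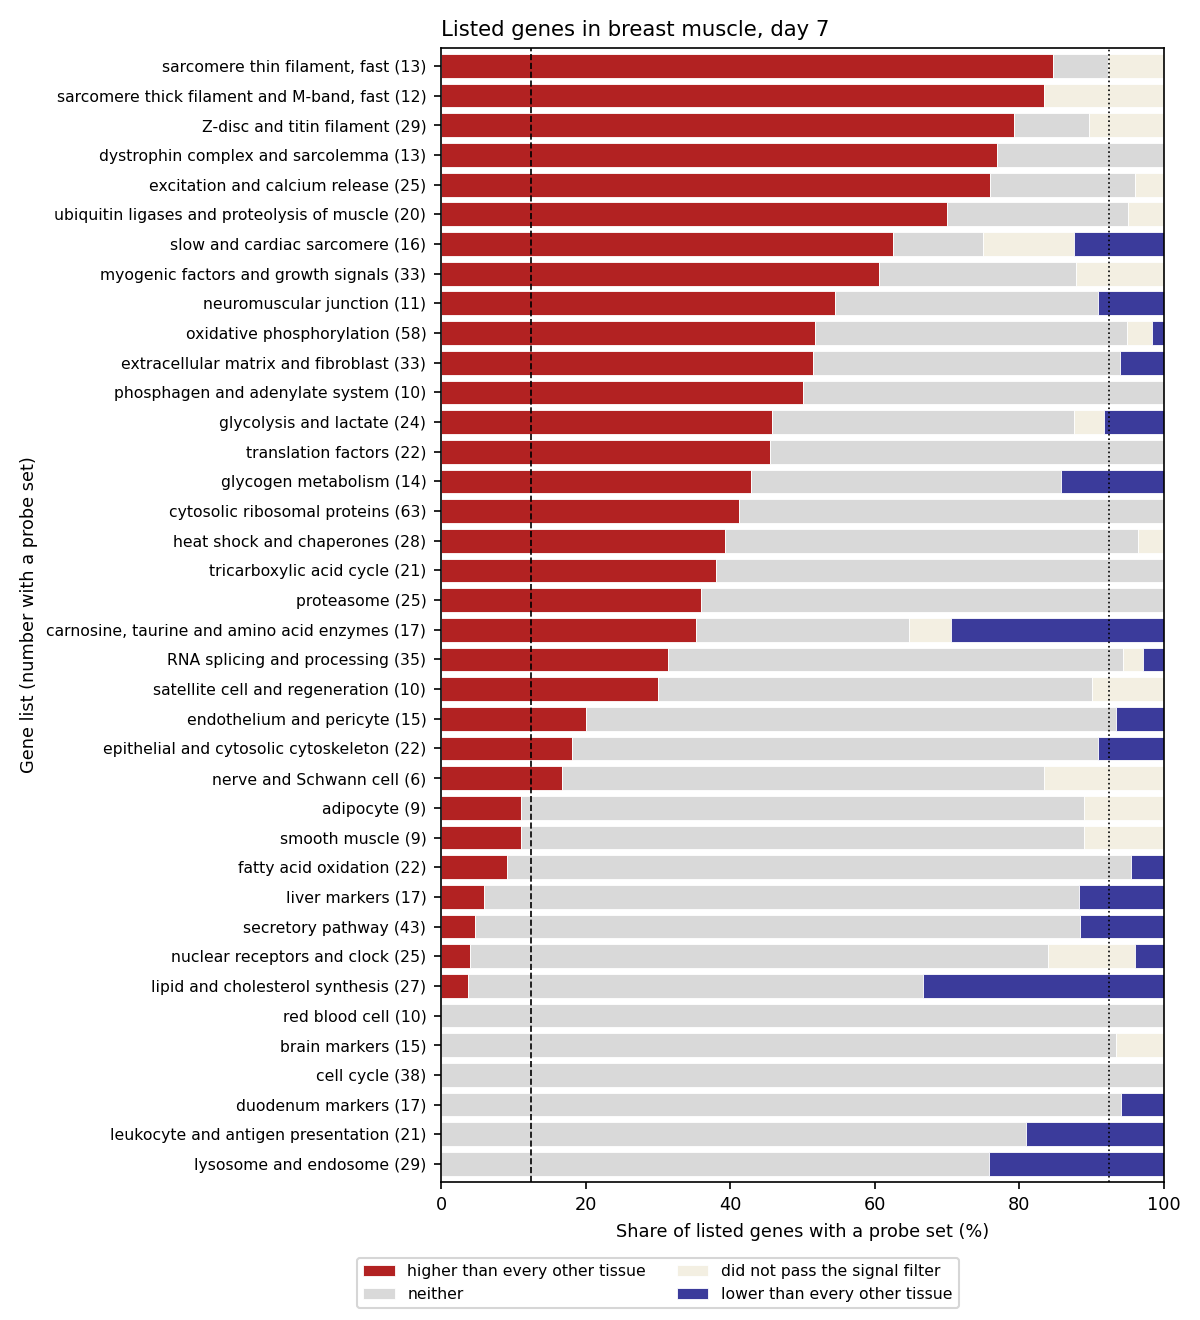
Share of each gene list's members that were higher in muscle than in every other tissue (red), neither (grey), not passing the signal filter (cream) or lower (blue); numbers in brackets give the members with a probe set. The dashed line marks the 12.5% of all named genes passing the filter that were higher. The dotted line, read from the right, marks the 7.63% that were lower. Lists of the contractile apparatus fill the top and leukocyte and lysosome lists the bottom.

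Among genes that supply ATP to contraction, some isoforms were higher in muscle and others of the same family were not. Of 10 phosphagen and adenylate genes, 5 were higher and none was lower. AMPD1, the muscle AMP deaminase, averaged 33346 ± 6020 in muscle and at most 84.5 elsewhere, higher by 8.51 ± 0.56. AMPD3, another AMP deaminase, was also higher, by 1.43. AK1, cytosolic adenylate kinase, was higher by 4.91 ± 0.15 and ADSS1, the muscle adenylosuccinate synthase, by 3.90 ± 0.15. The brain creatine kinase CKB averaged 2446 in muscle, against 28873 in brain, 21005 in duodenum and 1616 in liver, and was neither higher nor lower than in every tissue. CKMT1B, the ubiquitous mitochondrial creatine kinase, averaged 301.1 in muscle and 10412 in duodenum and was neither.

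Glycogen genes were 6 of 14 higher and 2 lower. The higher genes included subunits of phosphorylase kinase, the enzyme complex that switches on glycogen breakdown. PHKA1, its muscle alpha subunit, had 20858, 21270 and 18634 in muscle, against 430 to 800 in liver, 701 to 1020 in brain and 375 to 485 in duodenum. PHKG1, the catalytic subunit, was higher by 4.07 ± 0.16 and PHKB, the beta subunit, by 3.73 ± 0.21. PHKA2, the liver alpha subunit, was lower: it averaged 105.7 ± 34.4 in muscle and 289.4 ± 35.8 in duodenum, a difference of -1.27 ± 0.21. GYG1, the protein primer of glycogen, was higher by 3.16 ± 0.18. PYGB, brain glycogen phosphorylase, was lower at -0.52 ± 0.18 from liver, but the muscle and liver pools overlapped and the call was lost in 5 of 23 alternatives, among them leaving out muscle pool 2, muscle pool 3 or liver pool 2, and neither of its 2 further probe sets was called. The muscle phosphorylase PYGM was not analysed here, nor was GYS1.

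Glycolysis and lactate genes were 11 of 24 higher and 2 lower. PFKM, the muscle phosphofructokinase, had 71019, 78644 and 63479 in muscle and at most 165 in any other pool, higher by 9.01 ± 0.37. PFKL, the liver form, averaged 286.4 ± 35.4 in muscle, against 2957 ± 420 in liver, 2428 ± 487 in brain and 1287 ± 373 in duodenum, lower at -2.03 ± 0.21. PFKP, the platelet form, averaged 1287 in muscle, 10488 in brain and 775.6 in liver and was neither. GPD1, cytosolic glycerol-3-phosphate dehydrogenase, had 24178, 27573 and 23664 in muscle and at most 39.3 in any other pool, while GPD1L2, annotated as a relative of it, was lower in muscle, at -4.59 ± 0.20. FBP2, the muscle fructose bisphosphatase, was higher by 8.09 ± 0.28. FBP1, the liver form, averaged 273.3 in muscle, 44093 in liver and 74.1 in brain and was neither. SLC16A3, a lactate exporter, was higher by 2.56 ± 0.32, LDHA, lactate dehydrogenase A, by 1.67 ± 0.17, and PGAM1, a phosphoglycerate mutase, by 2.16 ± 0.14. LDHB averaged 6333 in muscle, below 35103 in liver and 22632 in brain but above 4704 in duodenum, and was neither. PFKFB3, which makes an activator of phosphofructokinase, was lower at -2.25 ± 0.28, but its 1 further probe set was not. ALDOA, ENO3 and PGAM2 were not analysed here.

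**Figure D4:**
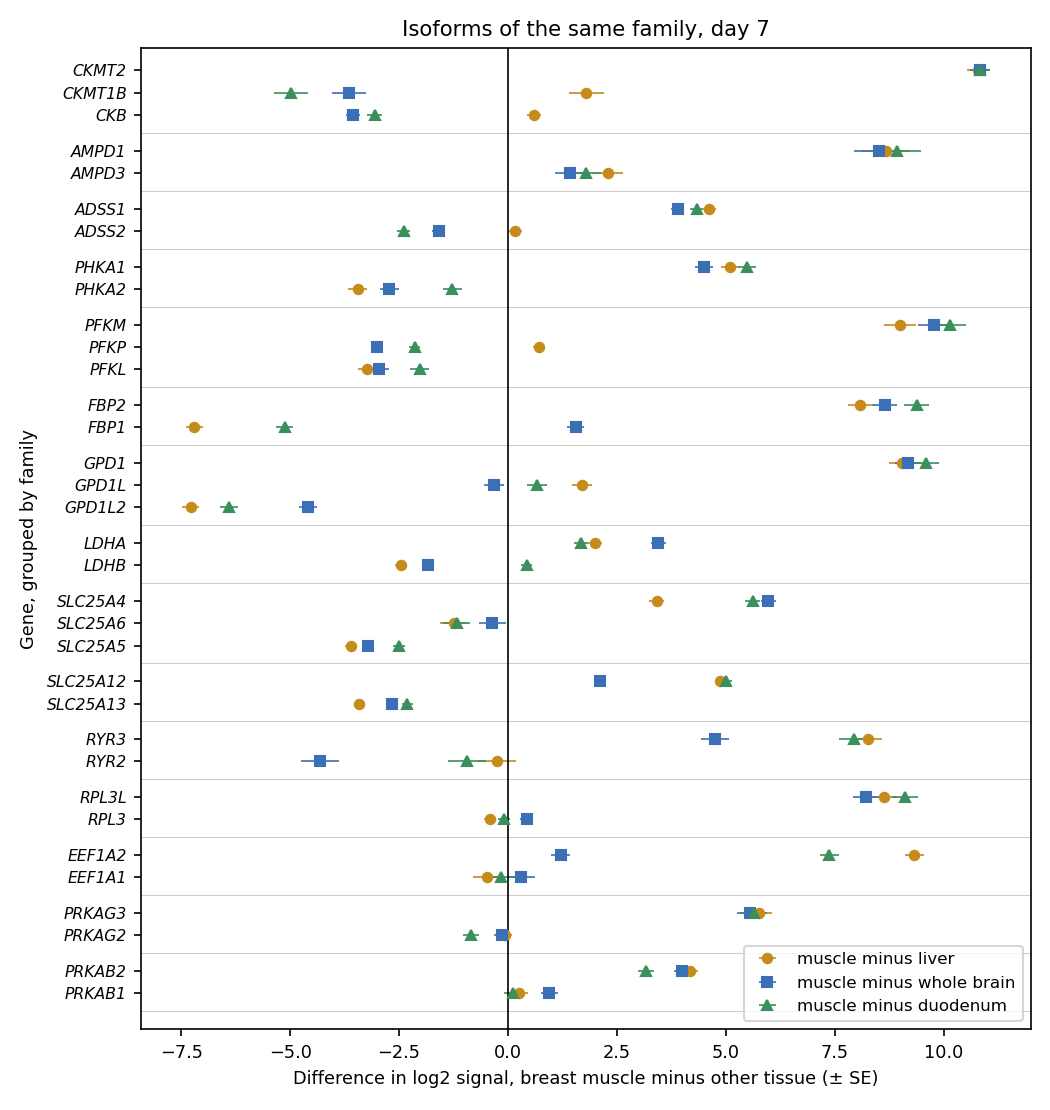
Differences in log2 signal, breast muscle minus liver (circles), brain (squares) and duodenum (triangles), with standard errors, for members of 15 gene families. Each family was drawn with a gene called higher as its upper member, so that member lies to the right of 0 by choice. AMPD3, drawn below AMPD1, was also called higher. PHKA2, PFKL, GPD1L2, SLC25A5 and SLC25A13 were called lower than in all 3 tissues. The isoform list as a whole had 21 of 44 genes higher and 2 lower, and its troponin genes are not shown. GPD1L, SLC25A5, SLC25A12, SLC25A13 and the PRKAG and PRKAB genes were chosen after their values were seen, and GPD1L2 entered through its rank among the lower genes.

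Mitochondrial genes had smaller differences. Tricarboxylic acid cycle genes were 8 of 21 higher. They were led by the isocitrate dehydrogenase subunit IDH3B at 1.78 ± 0.13, whose 1 further probe set was not called. DLAT followed at 1.775 and the isocitrate dehydrogenase subunit IDH3A at 1.55 ± 0.13. Respiratory chain and ATP synthase genes were 30 of 58 higher and 1 lower, with a median difference of 0.97 over the 58. This count was 20 when each array was centred on its median and 23 after quantile normalization. NDUFS6, a complex I subunit, averaged 29718 ± 4869 in muscle, against 10322 ± 2326 in liver, 4148 ± 1286 in brain and 6136 ± 2381 in duodenum, higher by 1.54 ± 0.28. SLC25A4, the muscle ATP/ADP carrier, had 61966, 64521 and 58254 in muscle, 5183 to 6372 in liver, 793 to 1247 in brain and 1037 to 1492 in duodenum, higher by 3.41 ± 0.17. SLC25A5, another ATP/ADP carrier and chosen after its values were seen, was lower at -2.50 ± 0.14, and SLC25A6 was neither. COX8A, a subunit of cytochrome oxidase, was lower at -1.30 ± 0.23. Fatty acid oxidation genes were 2 of 22 higher and 1 lower, a share of 9.09% beside 12.5% of all named genes, and 4 were higher without duodenum pool 1. The higher genes were UCP3, a mitochondrial uncoupling protein, at 6.30 ± 0.38 and the fatty acid binder FABP3 at 1.95 ± 0.23. The lower gene was the carnitine importer SLC22A5 at -1.02 ± 0.28.

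AMP-activated protein kinase, the cell's sensor of low ATP, showed the same kind of contrast between subunits chosen after their values were seen. PRKAG3, its muscle gamma subunit, averaged 1770 ± 188 in muscle and at most 10.0 elsewhere, higher by 5.56 ± 0.31. PRKAB2 was higher by 3.17 ± 0.18 and PRKAA2 by 2.04 ± 0.43, while PRKAG2, PRKAB1 and PRKAA1 were neither. The aspartate-glutamate carriers, chosen the same way, differed as well, with SLC25A12 higher by 2.12 ± 0.13 and SLC25A13 lower at -2.31 ± 0.12.

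Myogenic factors and growth signals were 20 of 33 higher, none was lower and 4 did not pass the filter. MYOD1, a master transcription factor of muscle, had 9940, 11209 and 10435 in muscle, against at most 45.9 in liver, 65.6 in brain and 86.0 in duodenum. MSTN, which encodes myostatin, had 4243, 4331 and 3797 in muscle, against 4.75 to 6.91 in liver, 15.7 to 38.6 in brain and 3.30 to 24.99 in duodenum. Neither gene's muscle pools overlapped any other pool, and the smallest differences were 7.51 ± 0.48 for MYOD1 and 6.27 ± 0.30 for MSTN. TBX15, a T-box factor of fast fibres in mice, was higher by 4.99 ± 0.29. Among 10 satellite cell genes 3 were higher: MYF5 by 3.26 ± 0.43, CD34, which vessels and fibroblasts also express, by 1.70 ± 0.15, and PAX7, the defining factor of these stem cells, by 1.07 ± 0.35 from brain. The PAX7 call was lost with an added value of 1 and without muscle pool 2. Homeobox genes HOXA7, HOXA9 and HOXA11, chosen after their values were seen, were higher by 5.86, 5.37 and 2.72, with 1 of 2 further probe sets called for HOXA7.

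Ubiquitin ligases and proteolysis genes of muscle were 14 of 20 higher. KLHL31, a substrate adaptor of a ubiquitin ligase, was higher by 9.002 ± 0.35, ASB12 by 6.02 ± 0.37 and TRIM63, known as MuRF1, by 5.81 ± 0.27. Cytosolic chaperone genes were 11 of 28 higher. UNC45B, which folds the myosin head, averaged 3590 ± 358 in muscle and at most 5.39 elsewhere, higher by 6.74 ± 0.28. The small heat shock proteins HSPB3 and HSPB8 were higher by 5.36 ± 0.33 and 4.82 ± 0.23. SMYD1, a methyltransferase that assists myosin assembly, was higher by 3.11 ± 0.32.

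Genes of protein synthesis were higher by less, and their counts depended on the scaling. Cytosolic ribosomal protein genes were 26 of 63 higher with none lower, but this was 9 after median centring, 9 after quantile normalization and 17 without liver pool 2. Their median difference was 1.03, with medians of 0.33 against liver, 1.69 against brain and 1.03 against duodenum. RPL3L, a form of ribosomal protein L3 that replaces it in striated muscle of mammals, stood apart from them. It had 21428, 23010 and 21802 in muscle, against 5.06 to 56.9 in liver, 42.8 to 49.8 in brain and 6.13 to 19.3 in duodenum, higher by 8.23 ± 0.30. RPL3 averaged 16650 in muscle, 22299 in liver and 12381 in brain and was neither. Translation factors were 10 of 22 higher. EEF1A2, the elongation factor of muscle and neurons, averaged 64251 ± 7973 in muscle, against 76.0 ± 38.3 in liver, 27642 ± 977 in brain and 358.9 ± 56.7 in duodenum, and its difference from brain of 1.21 ± 0.22 was lost after quantile normalization. EIF4EBP1, a repressor of cap-dependent translation, was higher by 1.08 ± 0.14. Proteasome genes were 9 of 25 higher, but 3 after median centring, 5 without muscle pool 1 and 5 without muscle pool 3. PSMA5, a subunit of the core, was the furthest at 1.94 ± 0.17. RNA processing genes were 11 of 35 higher and 1 lower, and the 11 were 5 after median centring. The lower count was 2 without muscle pool 2, brain pool 3 or duodenum pool 1. The leading members were RNA-binding proteins known from muscle, RBM24 at 5.10 ± 0.16, RBM20 at 4.57 ± 0.31 and RBM38 at 3.88 ± 0.17.

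Extracellular matrix and fibroblast genes were 17 of 33 higher and 2 lower, with a median difference of 1.99. POSTN, periostin, averaged 21091 ± 2605 in muscle and 1486 ± 337 in duodenum, higher by 3.82 ± 0.20. MFAP5, a microfibril protein, was higher by 3.18 ± 0.22, OGN, a small proteoglycan, by 2.48 ± 0.23 and VIM, vimentin, by 2.44 ± 0.21. COL12A1, a fibril-associated collagen, was lower at -1.05 ± 0.18, although neither of its 2 further probe sets was. TNC, tenascin, was lower at -0.90 ± 0.34, with overlapping pools, and lost its call in 6 of 22 alternatives, among them leaving out muscle pool 1 or 2, or brain pool 1 or 2. Beside these counts, the summed signal of 6 fibroblast markers was 182207 to 201834 in muscle pools, 59440 to 69488 in liver, 17017 to 18819 in brain and 70227 to 118904 in duodenum. The part of fibroblast number in the matrix values was not tested. Vessel wall genes were 3 of 15 higher (20.0%), led by MCAM at 2.21 ± 0.36, and 1 lower (6.67%). None was lower without muscle pool 2, duodenum pool 2 or duodenum pool 3. Of 6 endothelium markers 1 was higher. Their summed signal was 13265 to 13559 in muscle pools, 14162 to 15035 in liver, 6230 to 6444 in brain and 3015 to 4692 in duodenum. Adipocyte genes were 1 of 9 higher, a share of 11.1% near the 12.5% of all named genes: ADIPOQ, adiponectin, averaged 5786 ± 568 in muscle and 2249 ± 473 in duodenum. The adipocyte count was 3 without duodenum pool 1 and 2 without liver pool 3. Smooth muscle genes were likewise 1 of 9 higher (11.1%), DES, which skeletal fibres also express. Among nerve and Schwann cell genes 1 of 6 was higher (16.7%), PMP22.

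The genes furthest below every other tissue were in none of the gene lists, apart from GPT2. CYP4A22, annotated as a fatty acid hydroxylase of the cytochrome P450 family, had 3.73, 71.0 and 44.8 in muscle, against 8782 to 10366 in liver, 1677 to 1780 in brain and 12370 to 16079 in duodenum. FGFR3, a fibroblast growth factor receptor, had 33.9, 43.1 and 77.0 in muscle, against 3076 to 4751 in liver, 1837 to 2271 in brain and 1481 to 3038 in duodenum. GPT2, mitochondrial alanine aminotransferase, had 418, 468 and 335 in muscle, against 10642 to 16022 in liver, 6554 to 7938 in brain and 17483 to 27137 in duodenum. For each of these genes every muscle pool lay far below every other pool, the lack of overlap being a condition for entering the ranking. Differences from the nearest tissue were -4.82 ± 0.28 for CYP4A22, -4.70 ± 0.26 for FGFR3 and -4.05 ± 0.19 for GPT2. The leading 15 also held UGT8 and FA2H, which make the galactolipids of myelin and epithelia, at -3.74 ± 0.14 and -3.51 ± 0.33. They held GLDC, the glycine decarboxylase, at -3.65 ± 0.38, BAMBI, a decoy receptor of TGF-beta signals, at -3.48 ± 0.15, MAP7, a microtubule-binding protein of epithelia, at -3.84 ± 0.20, and SLC1A1, a glutamate transporter, at -3.25 ± 0.29. The others were GPD1L2, the junction scaffold gene USH1C, the hexokinase relative HKDC1, TSTD1, SPATA13 and MLK4. FGFR3 and SPATA13 each had 2 of 3 further probe sets called lower. Adjusted p over the 15, taking the largest of each gene's 3, ran from 3.39e-12 to 6.14e-07 in limma. Many of these muscle signals lie near or below the added 28.4, so the size of the difference depends on that value: SLC1A1 stood at -5.62 with 1 added and at -1.86 with the median signal added.

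**Figure D5:**
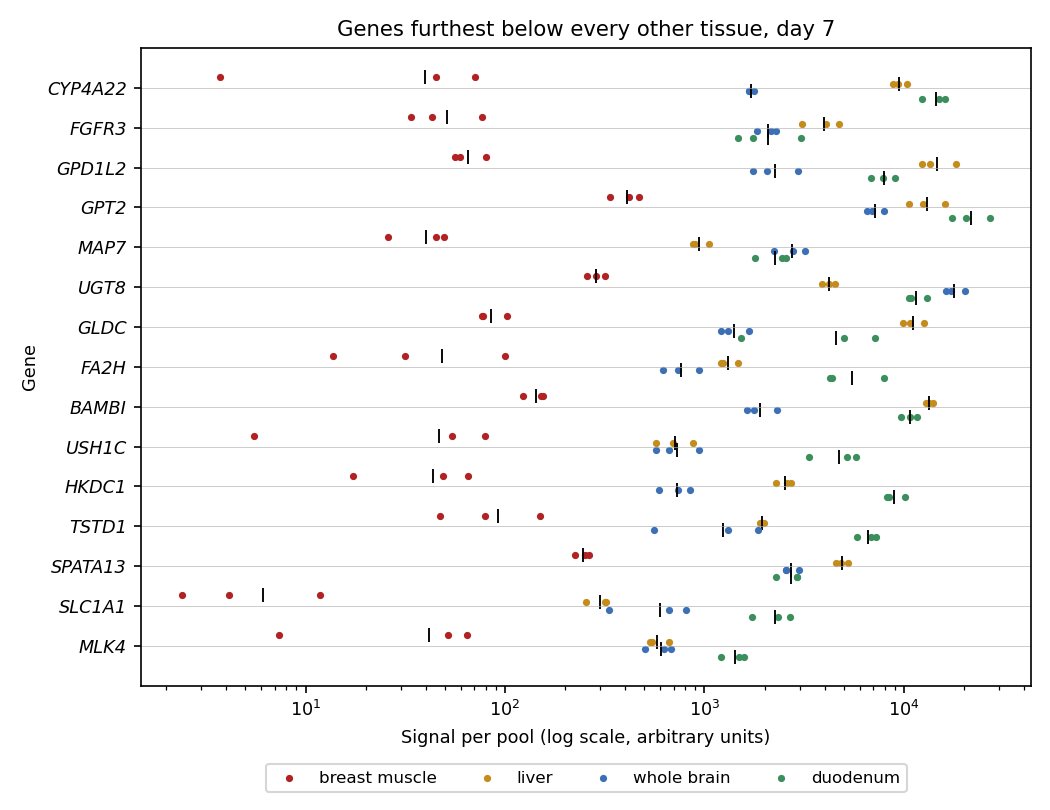
Signal in each of the 12 pools, on a log scale, for the 15 genes furthest below every other tissue; black ticks are group means over 3 pools. Muscle pools lie at or below 468 for every gene. They lie below all 9 other pools of the same gene, which was a condition of the choice.

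Some further lower genes were chosen after their values were seen, apart from INSR, which was in a list. FGFR2, a relative of FGFR3, was lower at -3.02 ± 0.20, with 2 of 4 further probe sets called, and IRS2, an adaptor of the insulin receptor, at -2.33 ± 0.27, although the further probe set of IRS2 was not called. INSR, the insulin receptor itself, averaged 414.8 ± 15.4 in muscle, against 900.4 ± 87.3 in liver, 1225 ± 84 in brain and 677.5 ± 35.4 in duodenum. Its difference was -0.67 ± 0.15, and neither of its 2 further probe sets was called. The desmosome genes DSP and PKP2 were lower at -2.73 ± 0.23 and -2.38 ± 0.29 and the gap junction gene GJB1 at -2.82 ± 0.17; no list of junction genes was counted.

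Lipid and cholesterol synthesis genes were 9 of 27 lower and 1 higher, a lower share of 33.3% beside 7.63% of all named genes. MSMO1, a sterol oxidase, averaged 4307 ± 260.5 in muscle, against 31339 ± 2482 in liver, 18597 ± 2232 in brain and 21437 ± 6396 in duodenum, lower at -2.10 ± 0.18. LSS, lanosterol synthase, was lower at -1.45 ± 0.17, ELOVL6, a fatty acid elongase, at -1.26 ± 0.16 and FDFT1, squalene synthase, at -1.08 ± 0.13. FDPS, farnesyl diphosphate synthase of the same pathway, was the higher gene at 0.63 ± 0.17, and this call was lost after median centring. Without duodenum pool 1, 2 genes of the list were higher. Lysosome and endosome genes were 7 of 29 lower with none higher (1 without duodenum pool 1), including PSAP, the precursor of saposins, at -1.10 ± 0.13 and the proton pump subunit ATP6V1A at -0.84 ± 0.13. Secretory pathway genes were 5 of 43 lower (11.6%) and 2 higher (4.65%), beside 7.63% and 12.5% of all named genes. The counts were 1 lower and none higher after median centring, and 3 lower without muscle pool 2 or without brain pool 3. SSR1, a member called lower at -0.49 ± 0.15, had 2 of 3 further probe sets called higher.

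Leukocyte and antigen presentation genes were 4 of 21 lower (19.0%) with none higher. The median difference was -1.32, with medians of -2.41 against liver, 0.51 against brain and -2.205 against duodenum. CD3E, of the T cell receptor complex, averaged 25.8 ± 29.6 in muscle, against 577.2 ± 9.0 in liver, 83.0 ± 10.5 in brain and 2270 ± 192 in duodenum, lower at -1.17 ± 0.30. The count of 4 was 2 without muscle pool 1, without muscle pool 3 or without any 1 of the 3 brain pools. Summed signals of 5 leukocyte markers were 7188 to 7728 in muscle, 45326 to 58613 in liver, 5571 to 6141 in brain and 42835 to 75330 in duodenum. Cell cycle genes were 0 of 38 higher and 0 of 38 lower than in every other tissue, with a median difference of 0.25. Their medians were 0.06 against liver, 0.93 against brain and -0.295 against duodenum. Red blood cell genes and brain markers had none in either direction. Liver markers had 2 of 17 lower (11.8%), TTR, whose 1 further probe set was not called, and TF. The 1 higher (5.88%) was CPS1, whose call was lost in 11 of 22 alternatives, 8 of them leaving out 1 pool. Without duodenum pool 1, 4 liver markers were lower. Duodenum markers had 1 of 17 lower (5.88%), EPCAM. Cytoskeleton genes of other cells were 4 of 22 higher (18.2%) and 2 lower (9.09%). VIM led the higher genes at 2.44, followed by CFL2, the muscle cofilin, at 1.92 ± 0.18. A lower gene was EZR, ezrin of microvilli, at -1.55 ± 0.18, whose 1 further probe set was not called. The lower count was 5 after quantile normalization and 1 without muscle pool 2 or liver pool 3. In the list of nuclear receptor and clock genes, 1 of 25 was higher, CRY1, and 1 lower (4.0% each). The lower gene was INSR, the insulin receptor, which is of neither kind but was written in that list. The counts were 2 higher and 3 lower without duodenum pool 1 and 2 lower without liver pool 3.

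Genes of small molecules and amino acids that muscle stores or uses were 6 of 17 higher and 5 lower. BCAT1, which transaminates branched-chain amino acids, averaged 3416 ± 383 in muscle and at most 325.9 elsewhere, higher by 3.29 ± 0.27. CARNMT1, which methylates carnosine to anserine, a dipeptide known from chicken breast, was higher by 1.37 ± 0.14. SLC7A5, a carrier of large neutral amino acids, had 3518, 2876 and 3213 in muscle, 341 to 445 in liver, 862 to 1635 in brain and 98.6 to 168 in duodenum, higher by 1.31 ± 0.23. GLUL, glutamine synthetase, was lower at -2.07 ± 0.37, CDO1, which starts taurine synthesis from cysteine, at -1.30 ± 0.16 and the amino acid carrier SLC36A1 at -1.03 ± 0.22, none of whose 4 further probe sets was called.

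The same rule was applied at hatch in a fit of all 24 arrays, in which 1500 of 11544 genes (13.0%) were higher in muscle than in every other tissue at day 7 and 1158 (10.0%) at day 0. The genes called at both ages numbered 743, which is 49.5% of the day 7 set and 64.2% of the day 0 set. On the lower side 930 genes (8.06%) were called at day 7 and 721 (6.25%) at day 0, with 411 at both, which is 44.2% and 57.0% of the sets. The difference between ages in muscle minus other tissue was tested for 184 named genes, and all 3 such differences passed with muscle higher at day 7 for 38 and with muscle lower at day 7 for 14, beside 654 (5.67%) and 575 (4.98%) of all genes. The named genes were chosen for their day 7 differences, which enter this test, so their count is a description. MYH1E averaged 59549 ± 7601 in muscle at day 7 and 207.2 ± 69.3 in muscle at day 0. RPL3L averaged 22080 ± 827 in muscle at day 7 and 380.6 ± 153.9 at day 0. SLC7A5 averaged 3202 ± 321 in muscle at day 7 and 90.0 ± 25.5 at day 0, where it was lower than in every other tissue, with a smallest difference of -1.06. For these genes the contrast with other tissues was larger at day 7 by at least 7.72, 5.67 and 5.14. MSTN averaged 4124 ± 286 at day 7 and 367.8 ± 106.5 at day 0, and PHKA1 20254 ± 1418 at day 7 and 2279 ± 210 at day 0. Among the 14 were slow isoforms: MYBPC1 averaged 2074 ± 464 in muscle at day 7 and 27218 ± 1106 at day 0, and TNNI1 138.4 ± 18.1 at day 7 and 963.2 ± 22.8 at day 0. The slow and cardiac list did not move as a whole. MYBPC3 was among the 38, at 8986 ± 1581 in muscle at day 7 and 1338 ± 614 at day 0. TNNC1 averaged 65689 ± 4798 at day 7 and 10502 ± 1749 at day 0, and TNNT2 227.6 ± 41.9 and 996.0 ± 109.5, with no age change called for either. COL12A1 averaged 729.2 ± 188.1 in muscle at day 7 and 6748 ± 361 at day 0.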

How the data were processed

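The authors deposited a linear intensity for each probe set on each array, computed with MAS5 per the submitters' processing notes, which name no version or settings. The 2% trimmed mean signal lay between 500.1 and 500.15 on every array, so the arrays share 1 scale and a signal has meaning against the other signals of that array. RNA was extracted with Trizol and target was made from 2 µg, per the labels' protocols.

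Of 38535 probe sets, 96 controls were left out. Signals were used as log2(signal + 28.36), the added value being the 25th percentile of all signals. Probe sets were kept where at least 1 of the 4 day 7 group means was at or above 104.6 (the overall median), and 25431 remained. A model with 4 group means was fitted to the 12 day 7 arrays (limma 3.58.1, R 4.3.3), its empirical Bayes step letting the variance follow the signal level. P-values were adjusted by the Benjamini-Hochberg method within each of 3 contrasts, and a call needed all 3 adjusted p under 0.05 with 1 sign. The day 0 comparison used a model with 8 group means over 24 arrays. The limma code was tested on simulated data.

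The array's annotation gave 27178 probe sets 1 symbol, 177 several and 11180 none. Of the 27178, 26863 were matched by gene number to the RefSeq table of GRCg7b and took the symbol given there. A gene was represented by the kept probe set with the highest mean signal. Coordinates are not given.

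The 184 named genes held the 15 with the largest smallest difference in each direction, among called genes whose muscle pools did not overlap any other pool. They also held up to 4 called genes per list and direction, and every measured gene of the isoform list. The text gives values for only some of them. The members, the 39 gene lists and the rule were chosen with earlier results of these data known. Alternatives were the added value, the filter, the centring, quantile normalization, all 24 arrays, no variance trend, array weights, a replicate block, a 2-fold threshold and leaving out each pool. No 2 arrays held identical values.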

Additional observations from a re-analysis of the deposited data

Results flagged for a closer look

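Among the 30 genes furthest above or below the other tissues at day 7, 9 had a muscle difference that changed between hatch and day 7 against liver, brain and duodenum alike, by a test of the change in each contrast in limma. The value given is the smallest of the 3 changes, day 7 minus day 0, on the log2 scale. The day 7 values that chose these genes enter the test. Over all 11544 genes, 654 (5.67%) changed with muscle higher at day 7 and 575 (4.98%) with muscle lower.

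MYH1E changed most, by 7.72, with muscle at 59549 ± 7601 on day 7 and 207.2 ± 69.3 on day 0. GPD1 changed by 3.56, with 25138 ± 2124 in muscle on day 7 and 1584 ± 663 on day 0. CKMT2 changed by 1.82, with 63263 ± 5829 on day 7 and 17673 ± 858 on day 0, and MYLPF by 0.79, with 51165 ± 2728 on day 7 and 26848 ± 731 on day 0.

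GPT2 changed by -1.95, with 406.8 ± 66.9 in muscle on day 7 and 1646 ± 315 on day 0. UGT8 changed by -1.85, FGFR3 by -1.35 and MAP7 by -1.08, each further below the other tissues at day 7 than at hatch. GPD1L2 changed by 1.27: its signal in muscle was 65.1 ± 13.0 on day 7 and 10.2 ± 6.6 on day 0, and it was below the other tissues at both ages.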

How the results depend on the processing

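The counts of probe sets called for muscle kept within 1.5 times of their value under the alternatives tried, apart from the 4-fold counts. The 146 probe sets at least 4-fold lower were 375 with 1 added before the logarithm, 69 with the median signal added and 802 at a 2-fold threshold, and the 686 at least 4-fold higher were 1708 at a 2-fold threshold. Leaving out each pool in turn gave 2351 to 3142 probe sets higher and 1328 to 1752 lower than every other tissue, and 672 to 699 and 145 to 161 at 4-fold. It gave 10333 to 13037 calls against liver, 12304 to 14918 against brain and 11287 to 12980 against duodenum. Deviations of same-numbered pools of different tissues correlated between -0.06 and 0.13. With 3 pools per tissue, these values cannot tell whether such pools came from the same chicks. The replicate block gave 2781 probe sets higher and 1562 lower. Leaving out brain pool 3 and duodenum pool 1 was chosen after seeing the data. Of 163 named genes that were called, 143 kept their call in every alternative that tested them and 0 changed sign. The calls lost most often were CPS1 (11 of 22), TPM3 (10 of 23), CD8A (7 of 22) and LCP1 (7 of 23). The number of named genes whose muscle difference changed with age, 52, was 41 to 65 under its 4 alternatives, also chosen after seeing the data. Having 3 pools per tissue limits the precision, and differences of dim genes depend on the added value.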

Other observations

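Some genes outside the lists, chosen after their values were seen, also stood far above every other tissue. APOBEC2, a muscle-expressed relative of cytidine deaminases, averaged 9145 ± 790 in muscle and at most 19.1 in another tissue, with a smallest difference of 7.67 ± 0.32. The phosphatase gene DUSP29 was higher by 6.87 ± 0.24, and PERM1, a regulator of muscle mitochondria in mammals, by 5.91 ± 0.33. COQ9, which helps make coenzyme Q, was higher by 2.81 ± 0.18, and ABCC9, a subunit of ATP-sensitive potassium channels, by 3.46 ± 0.21. LAMA2, the laminin chain of the muscle basement membrane, averaged 4295 ± 314 in muscle, against 614.7 ± 47.9 in brain, 124.6 ± 12.8 in liver and 95.6 ± 33.6 in duodenum.

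Some related genes, also chosen after their values were seen, were compared, and no list of such pairs was counted. NIPSNAP2 was higher in muscle by 2.02 ± 0.17 and NIPSNAP1 lower at -2.54 ± 0.15. HACD1, a muscle dehydratase of very long fatty acids, was higher by 5.01 ± 0.27, although its 1 further probe set was not called, and HACD2 was lower at -2.36 ± 0.14. The alpha-tubulin genes TUBA8A and TUBA8B were higher by 5.28 ± 0.32 and 5.05 ± 0.36. The metallothionein genes MT3 and MT4 were lower at -3.20 ± 0.41 and -1.85 ± 0.30. Of the probe sets at least 4-fold higher in muscle, 142 of 686 had no gene symbol, as did 26 of the 146 at least 4-fold lower.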
